A study of Mus musculus with 8 samples.

Results

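A set of 10 genes was followed through the hearts of control and Tefm knockout mice. Together they run the calcium store of the heart muscle cell, the sarcoplasmic reticulum (SR): Ryr2, Casq1, Casq2, Trdn, Hrc and Jph2 on the release side, Atp2a2, Pln and Sln on the uptake side, and Slc8a1 for extrusion across the cell membrane. The genes were taken from a fixed list of symbols, all 10 were found among the 49584 features of the count files, and 9 of the 10 carried enough counts to be tested. Total RNA came from crude heart mitochondria of 4 control mice, titled L/L, with loxP-flanked Tefm alleles and no cre (their genotype field reads Tefm +/+), and of 4 knockout mice, titled L/L, cre. TEFM helps the RNA polymerase of mitochondria to elongate. In the knockouts an exon of Tefm was removed by cre driven from the muscle creatine kinase promoter, which works in heart muscle and skeletal muscle, so that other heart cells keep the gene. The labels name no age, sex or strain, and each library is 1 mouse.

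In a heartbeat, a small calcium entry through the L-type channel opens the ryanodine receptor, and calcium leaves the SR to switch on the myofilaments. Relaxation follows when the SERCA pump returns most of that calcium to the SR and the sodium-calcium exchanger carries the rest out of the cell. Phospholamban and sarcolipin are small membrane peptides that brake the pump. Calsequestrin and the histidine-rich calcium binding protein hold calcium inside the store, and triadin and junctophilin build the junction at which release takes place.

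The libraries held 21108165 to 27403415 counts. Transcripts of mitochondrial DNA (mtDNA) made up 72.3% to 74.0% of the counts in controls and 38.7% to 59.3% in knockouts, with knockout replicate 1 at 59.3%. Levels are therefore given as CPM (counts scaled to the size of the library) on the TMM scale, which corrects each library for such shifts in composition, and log2 fold changes are knockout over control in edgeR's quasi-likelihood test. A gene passed at an adjusted p under 0.05. The count of Tefm itself, over the whole gene, was 106 to 144 in controls and 166 to 245 in knockouts (log2 fold change 0.14, standard error (SE) 0.11, adjusted p = 0.324), and since the deleted exon is not named this count does not check the deletion. In bulk RNA, fewer cells of a type and less RNA per cell cannot be told apart, and in crude mitochondria a change in the heart and a change in the RNA that sediments with the mitochondria cannot be told apart either.

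Of the 9 genes tested, 6 were lower and 1 was higher in the knockout libraries, and 2 did not pass. That is 77.8% called, where 50.0% of all 17891 features tested were called (26.1% higher and 23.9% lower). The median log2 fold change of the 9 was -1.55, beside -0.01 over all features tested. The 10 genes and the lists below were chosen with earlier results of these data known. Shares and medians set beside all features are therefore descriptions and no test of a set. The 7 called genes had libraries that did not overlap between the groups, as did 45.4% of all features tested. The falls were uneven, from 6.83-fold for Hrc to 1.38-fold for Jph2, and Slc8a1 rose 2.05-fold. Jph2 is the 1 called gene whose direction turned under other scalings, with the values given at that gene. The 10 genes were also taken as a part of all counts of nuclear genes, which scales each library to its nuclear total in place of a TMM factor. They made up 2.51% ± 0.0195 of the nuclear counts in controls and 0.997% ± 0.196 in knockouts (SD, n = 4 per group). Knockout replicate 1 was at 1.29% and the other knockouts between 0.867% and 0.927%. Atp2a2 alone went from 1.05% to 0.354% of the nuclear counts and Pln from 0.763% to 0.251%.

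**Figure D1:**
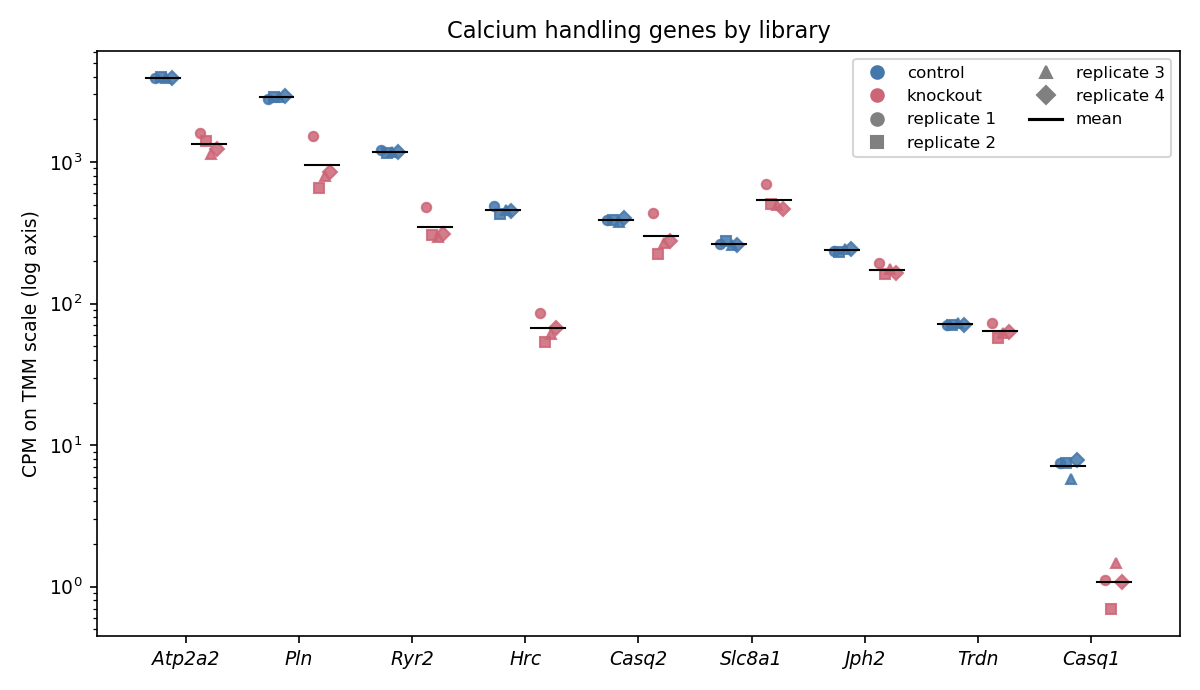
CPM on the TMM scale (log axis) of the 9 tested genes in each library, blue for the 4 controls and red for the 4 knockouts, with a marker shape for each replicate and a black line at the group mean. Knockouts sit below all controls for Atp2a2, Pln, Ryr2, Hrc, Jph2 and Casq1 and above them for Slc8a1, and knockout replicate 1 is the highest knockout for 8 of the 9 genes.

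The order of the genes by level per kilobase of exon also changed. In controls it ran from Pln (1038 CPM per kilobase ± 19.0, SD, n = 4 here and below) through Atp2a2 (648 ± 4.2), Hrc (178 ± 9.05), Casq2 (142 ± 3.90), Jph2 (56.1 ± 1.48), Ryr2 (41.0 ± 0.870), Slc8a1 (14.1 ± 0.426) and Trdn (7.62 ± 0.135) to Casq1 (3.67 ± 0.483), and no neighbours in this order overlapped between libraries. In knockouts Pln (348 ± 140.1) and Atp2a2 (221 ± 32.6) were again first but overlapped, from 239 to 553 and from 188 to 262. Casq2 (110.1 ± 34.7) came next and Jph2 (40.8 ± 3.23) after it. Slc8a1 (28.8 ± 5.76) and Hrc (26.1 ± 5.47) overlapped each other, and Ryr2 (12.1 ± 3.10), Trdn (6.81 ± 0.722) and Casq1 (0.557 ± 0.163) closed the order. Hrc thus went from the third to the sixth place and Slc8a1 from the seventh to the fifth. Among 17830 nuclear genes ranked by level per kilobase, Pln moved from rank 10 to 41, Atp2a2 from 15 to 79, Hrc from 74 to 734, and Slc8a1 from 1169 to 675. These lengths join all annotated exons of a gene, which for Ryr2 (28790 bases) and Slc8a1 (18807 bases) includes exons that not every transcript uses.

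The largest fall belonged to Hrc (ENSMUSG00000038239.11, chromosome 7, 45335290 to 45338974 in GRCm38, plus strand), which encodes the histidine-rich calcium binding protein of the SR lumen. Its controls held 487, 431, 459 and 453 CPM, and its knockouts 86.2, 53.2, 61.4 and 67.5 CPM. Every knockout lay far under every control, also in raw counts, which were 8224 to 9247 against 1838 to 2254. The log2 fold change was -2.77 (SE 0.13, 95% interval -3.05 to -2.50, adjusted p = 1.09e-09), and 102 of the features tested (0.570%) had a lower value. The calsequestrin of skeletal muscle, Casq1 (ENSMUSG00000007122.11, chromosome 1, 172209894 to 172219868, minus strand), is a minor transcript in heart and fell almost as far. It read 7.54, 7.49, 5.75 and 7.82 CPM in controls and 1.11, 0.695, 1.47 and 1.07 CPM in knockouts, from 104 to 157 counts down to 24 to 51 counts. The groups were well apart, and the log2 fold change was -2.72 (SE 0.19, 95% interval -3.13 to -2.31, adjusted p = 6.08e-08).

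Because skeletal muscle fibres express Casq1 strongly, the markers of that tissue were read beside it. None of the 8 skeletal muscle markers carried enough counts to be tested, and Myh4, a fast myosin, was at 0 counts in all 8 libraries. Their summed level was 0.996 to 1.33 CPM in controls and 0.252 to 0.535 CPM in knockouts, with Tnni2, a fast troponin, at 6 to 14 counts in controls and 0 to 1 in knockouts. Summed over the libraries of a group, Tnni2 went from 34 to 1 counts and Actn3 from 19 to 7. Mylpf (17 in controls and 18 in knockouts), Tnnt3 (12 and 17), Myh1 (3 and 4) and Myh2 (3 and 3) did not fall in counts. On the TMM scale their mean levels were lower in knockouts. They went from 0.224 to 0.143 CPM for Mylpf, 0.160 to 0.134 for Tnnt3, 0.0395 to 0.0359 for Myh1 and 0.0402 to 0.0240 for Myh2. The summed level thus moved in the same direction as Casq1, but not every marker did so in raw counts, which are not scaled. The part of these traces in the change of Casq1 was not tested.

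The cardiac calsequestrin Casq2 (ENSMUSG00000027861.13, chromosome 3, 102086415 to 102146514, plus strand), which makes up nearly all of the heart's calsequestrin RNA, did not pass the test. Controls held 391, 387, 376 and 402 CPM and knockouts 439, 222, 267 and 277 CPM. Knockout replicate 1 lay above all controls and the other 3 knockouts below all of them, which gave a log2 fold change of -0.37 (SE 0.16, 95% interval -0.71 to -0.03, adjusted p = 0.0686). Without knockout replicate 1 the value was -0.61 and passed (adjusted p = 2.2e-06), and it also passed with the replicate number as a block (-0.42, adjusted p = 0.0222) and without the filter on low counts (-0.32, adjusted p = 0.0221). With libraries scaled to their totals alone Casq2 was higher by 0.56, and scaled to cardiomyocyte markers by 0.11, which did not pass. Within each library the ratio of Casq1 to Casq2 counts went from 0.0184 ± 0.00204 to 0.00376 ± 0.00129 (SD, n = 4 each), a difference of -2.33 on the log2 scale (two-sided exact permutation test over 70 relabelings, p = 0.0286, the smallest this design allows; 0.0429 adjusted over 6 ratios). The part of the calsequestrin counts from Casq2 was 98.1% to 98.5% in controls and 99.5% to 99.7% in knockouts.

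The ryanodine receptor of heart, Ryr2 (ENSMUSG00000021313.15, chromosome 13, 11553102 to 12106945, minus strand), is the channel through which the SR releases calcium. It held 1212, 1151, 1180.0 and 1185 CPM in controls against 482, 305, 297 and 309 CPM in knockouts. Knockout replicate 1 was apart from the other 3 and still far below every control. Ryr2 fell by 1.76 on the log2 scale (SE 0.14, 95% interval -2.07 to -1.46, adjusted p = 2.21e-07), a 3.39-fold change, and by 1.97 without knockout replicate 1. Trdn (ENSMUSG00000019787.8, chromosome 10, 33080554 to 33476709, plus strand), whose protein triadin ties calsequestrin to the receptor, did not follow it. Its libraries held 70.9, 70.5, 73.1 and 70.4 CPM in controls and 73.1, 57.0, 61.7 and 63.1 CPM in knockouts, and the groups overlapped through knockout replicate 1. The log2 fold change of Trdn was -0.16 (SE 0.08, 95% interval -0.33 to 0.01, adjusted p = 0.106). It passed at -0.24 without knockout replicate 1 (adjusted p = 0.00346), and in the opposite direction with library totals (0.81) and with scaling to cardiomyocyte markers (0.36, adjusted p = 0.0314), so no direction is given for this gene.

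Counted within a library, Trdn per Ryr2 read 0.0585, 0.0613, 0.0619 and 0.0594 in controls and 0.152, 0.187, 0.208 and 0.204 in knockouts. The knockouts thus held more triadin RNA per receptor RNA in all 4 libraries, by 1.63 on the log2 scale (exact permutation p = 0.0286, adjusted 0.0429). Jph2 (ENSMUSG00000017817.11, chromosome 2, 163336242 to 163397993, minus strand) encodes junctophilin 2, the bridge between the cell membrane and the SR. With 233, 233, 244 and 244 CPM in controls and 193, 163, 174 and 164 CPM in knockouts, it changed least among the genes that passed. The log2 fold change was -0.46 (SE 0.08, 95% interval -0.62 to -0.30, adjusted p = 0.000199) on the TMM scale, 0.52 with library totals and 0.07 with scaling to cardiomyocyte markers. Its 4 knockouts lay below all 4 controls on the TMM scale.

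On the uptake side, Atp2a2 (ENSMUSG00000029467.15, chromosome 5, 122453513 to 122502225, minus strand), which encodes SERCA2, the calcium pump of the cardiac SR, had the most counts of the 10 genes. Controls held 3950.5, 3964, 3947 and 3905 CPM and knockouts 1592, 1401, 1143 and 1232 CPM. All knockouts were thus far below the controls, and the fall was 1.55 on the log2 scale (SE 0.12, 95% interval -1.80 to -1.31, adjusted p = 1.07e-07), or 2.94-fold. Pln (ENSMUSG00000038583.12, chromosome 10, 53337667 to 53345987, plus strand), the gene of phospholamban, the main brake on SERCA2 in ventricle, read 2790.0, 2871, 2886 and 2911 CPM in controls. Its knockouts held 1526, 659.9, 799.9 and 849.5 CPM, the widest relative spread among the 9 genes, with knockout replicate 1 at the top. The log2 fold change of Pln was -1.58 (SE 0.20, 95% interval -2.02 to -1.14, adjusted p = 2.04e-05), and -1.90 without that library.

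The pump and its brake were compared within each library. Pln per Atp2a2 was 0.706, 0.724, 0.731 and 0.745 in controls and 0.959, 0.471, 0.700 and 0.690 in knockouts. The knockouts lay on both sides of the controls, with replicate 1 above and the other 3 below them, and the means were 0.727 ± 0.0163 and 0.705 ± 0.199 (SD, n = 4 each). The difference of -0.09 on the log2 scale did not pass (exact permutation p = 0.6, adjusted 0.6), which does not show that the ratio stayed the same. Without knockout replicate 1 it was -0.25 and passed (adjusted p = 0.0286), and without knockout replicate 2 it was 0.09. Ryr2 per Atp2a2 went from 0.300 ± 0.00712 to 0.258 ± 0.0350, by -0.23 on the log2 scale (exact permutation p = 0.0857, adjusted 0.103), and by -0.31 without knockout replicate 1 (adjusted 0.0286).

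Sarcolipin, the brake of SERCA in atrium and skeletal muscle, was all but absent. Sln (ENSMUSG00000042045.6, chromosome 9, 53850164 to 53854560, plus strand) held 0 counts in 7 libraries and 1 count in knockout replicate 4. A count of 0 allows up to 0.109 to 0.114 CPM of the library total in controls and 0.118 to 0.142 in knockouts (3 counts per library, counting error only). No rise of Sln was detected within that limit. The atrial markers were low as well. Myl7, the atrial light chain, held 0 to 1 counts in controls and 0 to 4 in knockouts, and the 6 atrial markers summed to 13.2 to 16.5 CPM in controls and 17.4 to 25.5 CPM in knockouts. Of the 5 that were tested, 2 were higher and 1 was lower (median log2 fold change 0.48). That is 60.0% called, beside 50.0% of all features tested. Bmp10, 1 of the higher genes, and Myl4, which did not pass, reached the minimum count for testing through the knockouts alone. Their tests are therefore not read as results. Bmp10 made up 2.05 to 11.4 CPM of the knockout sums and at most 0.0498 CPM of the control sums, while Stard10 fell (-2.29). The part of the atrial markers in any member's change was not tested. The exact permutation test of Sln per Atp2a2, a log2 difference of 1.23 (adjusted p = 0.0429), reads only the 0.5 count added to each gene over a lower Atp2a2 and is no measure of Sln.

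The exchanger went the other way. Slc8a1 (ENSMUSG00000054640.14, chromosome 17, 81373105 to 81738377, minus strand) encodes NCX1, which moves calcium out of the heart cell in trade for sodium. It held 265, 276, 257 and 261 CPM in controls and 702, 503, 497 and 463 CPM in knockouts. Each knockout exceeded every control, also in raw counts (4649 to 5262 against 14707 to 18349), and replicate 1 was apart at the top. The log2 fold change was 1.03 (SE 0.12, 95% interval 0.78 to 1.28, adjusted p = 6.16e-06), and 0.88 without that library. A higher value was found for 1251 of the features tested (6.99%). Against the pump in the same library, Slc8a1 per Atp2a2 was 0.0670, 0.0696, 0.0652 and 0.0668 in controls and 0.441, 0.359, 0.435 and 0.376 in knockouts. That is a shift of 2.58 on the log2 scale (exact permutation p = 0.0286, adjusted 0.0429), the widest of the ratios of members between the groups, and no scaling factor enters it. If 1 control is dropped, whichever it is, the exact permutation p of this ratio, of Casq1 per Casq2 and of Trdn per Ryr2 is 0.0286, the smallest that 35 relabelings allow, but 0.0571 after adjustment over the 6 ratios.

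**Figure D2:**
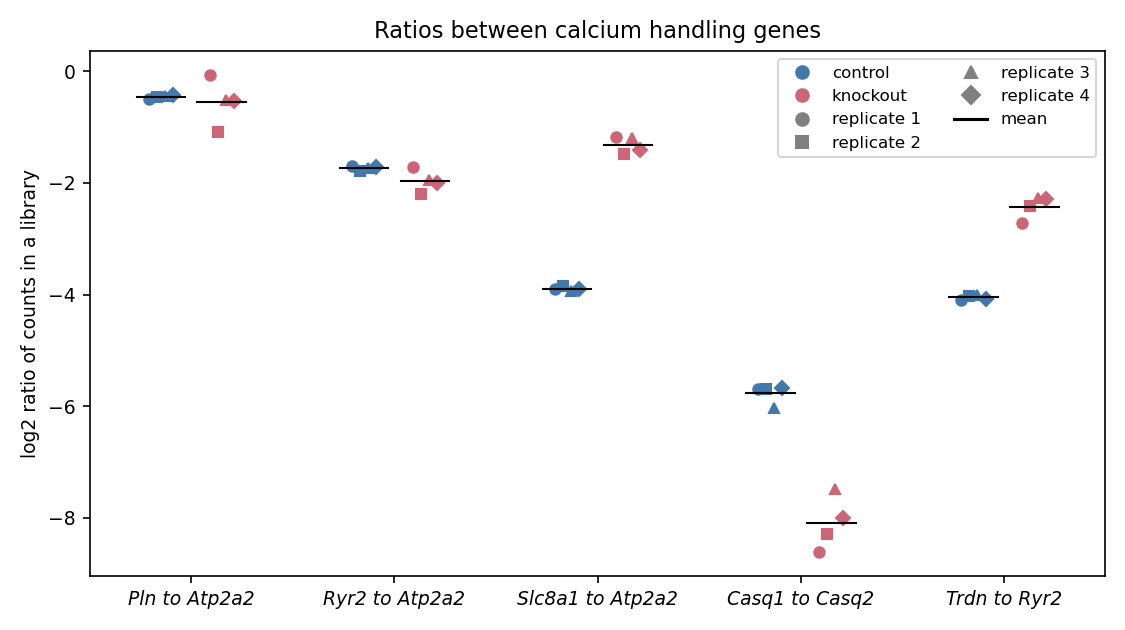
log2 ratio of the counts of 2 genes within each library (0.5 added to each count), blue for controls and red for knockouts, with a marker shape for each replicate and a black line at the group mean. The groups are apart for Slc8a1 to Atp2a2, Casq1 to Casq2 and Trdn to Ryr2, while for Pln to Atp2a2 knockout replicates 1 and 2 lie on opposite sides of the controls.

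The values depend on how libraries are made comparable, since the median of all features tested moves from -0.01 to 0.97 with library totals and to 0.52 when libraries are scaled to the 8 cardiomyocyte markers. On the TMM scale 6 of those 8 markers were lower and Mybpc3 was higher (median log2 fold change -0.55). That is 87.5% called, beside 50.0% of all features tested. The summed level of the 8 markers was 59081 to 62883 CPM in controls, 49130 CPM in knockout replicate 1 and 38005 to 44886 CPM in the other knockouts. Relative to these markers, a scaling chosen after the data were seen, Hrc (-2.27), Casq1 (-2.20), Ryr2 (-1.27), Pln (-1.12) and Atp2a2 (-1.03) were lower and Slc8a1 (1.54) and Trdn (0.36) higher. With library totals the same 5 genes were lower, Hrc by -1.81, Casq1 by -1.73, Ryr2 by -0.82, Pln by -0.66 and Atp2a2 by -0.59, and 4 genes were higher, Slc8a1 (1.99), Trdn (0.81), Casq2 (0.56) and Jph2 (0.52). Hrc, Casq1, Ryr2, Pln and Atp2a2 were thus lower and Slc8a1 higher under each of these scalings.

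**Figure D3:**
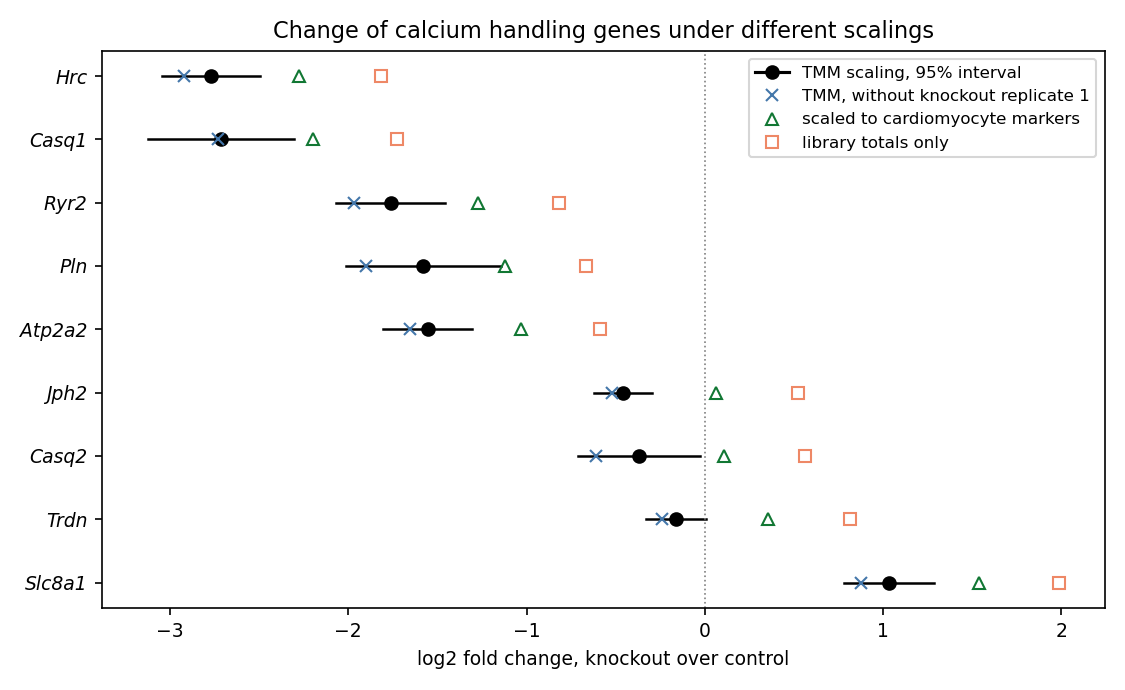
log2 fold change (knockout over control) of the 9 tested genes on the TMM scale with its 95% interval (black), without knockout replicate 1 (blue crosses), with libraries scaled to 8 cardiomyocyte markers (green triangles) and to library totals alone (orange squares). Hrc, Casq1, Ryr2, Pln and Atp2a2 lie left of 0 and Slc8a1 right of 0 in each case, while Jph2, Casq2 and Trdn cross 0 with the scaling.

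Knockout replicate 1 was the highest of the 4 knockouts for 8 of the 9 tested genes (88.9%) and for 32.6% of all features tested. Without it the log2 fold changes of Hrc (-2.92), Casq1 (-2.73), Atp2a2 (-1.65) and Jph2 (-0.52) kept their direction and passed. In that library the 5 red blood cell markers, of which 0 passed between groups in edgeR or DESeq2, adjusted or not (median log2 fold change 0.16), summed to 905 CPM, beside 172 to 329 CPM in the other knockouts and 182 to 457 CPM in controls. Its 6 fibroblast markers summed to 221 CPM, beside 346 to 405 CPM in the other knockouts and 240.0 to 253 CPM in controls, and 2 of the 6 were higher between groups (median 0.47). Of the 5 smooth muscle markers 2 were lower (median -0.08), and the list summed to 114 to 124 CPM in controls and 57.2 to 75.3 CPM in knockouts. Of the 5 endothelial markers 2 were lower (median -0.08; 309 to 326 CPM in controls, 269 to 298 CPM in knockouts), and of 4 tested macrophage and leukocyte markers 1 was lower (median -0.33; 31.1 to 41.7 CPM and 25.3 to 38.0 CPM). Called were 33.3% of the fibroblast, 40.0% of the smooth muscle, 40.0% of the endothelial and 25.0% of the tested macrophage and leukocyte markers. All of these shares lie under the 50.0% of all features tested. The part of these markers in the values of the calcium genes was not tested.

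Promoter windows of RefSeq (GRCm38.p6), the 250 bases before the start of transcription, were found for 7 of the 10 genes, 8 windows in all, of which a pair belongs to Jph2 and shares most of its bases. The windows of the most reduced pair, Hrc (chr7:45335019-45335268, plus strand) and Casq1 (chr1:172219896-172220145, minus strand), are shown with that of the raised Slc8a1 (chr17:81738388-81738637, minus strand), 5′ to 3′. Capitals mark matches, on either strand, to the E-box CAGCTG in Hrc and Casq1 and to the GATA motif AGATAA in Slc8a1.
Hrc: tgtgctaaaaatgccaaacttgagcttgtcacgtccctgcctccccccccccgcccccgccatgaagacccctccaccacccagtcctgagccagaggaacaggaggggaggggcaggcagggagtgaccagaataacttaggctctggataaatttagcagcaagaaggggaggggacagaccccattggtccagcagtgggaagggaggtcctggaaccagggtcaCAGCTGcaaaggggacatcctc
Casq1: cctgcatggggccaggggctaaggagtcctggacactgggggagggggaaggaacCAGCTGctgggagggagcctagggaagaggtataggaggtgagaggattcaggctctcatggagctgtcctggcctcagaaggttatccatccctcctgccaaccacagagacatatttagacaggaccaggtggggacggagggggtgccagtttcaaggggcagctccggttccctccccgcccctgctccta
Slc8a1: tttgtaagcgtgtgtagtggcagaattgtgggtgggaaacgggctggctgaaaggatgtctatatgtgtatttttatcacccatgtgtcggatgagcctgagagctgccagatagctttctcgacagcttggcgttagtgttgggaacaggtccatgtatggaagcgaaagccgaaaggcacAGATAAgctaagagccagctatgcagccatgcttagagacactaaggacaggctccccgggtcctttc

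The E-box lies 22 bases before the start in Hrc and 195 bases before it in Casq1. It was also found in both Jph2 windows at the same site, so 4 of the 8 windows and 13.0% of all 32851 windows hold it. AGATAA was in 2 of the 8 windows, 68 bases before the start in Slc8a1 and 183 bases before it in Pln, and in 9.99% of all windows. TATAAA was in Pln alone of the 7 genes (219 bases before the start; 12.4% of all windows), and the MEF2 box, a site of muscle gene regulation, in Casq2 alone (69 bases; 2.92%). No match was found in any of the 8 windows to the CArG box (1.47% of all windows), the M-CAT motif CATTCC (12.6%) or the ATF4 composite TGATGNAA (3.45%), and Ryr2 held none of the motifs. No match overlapped a match of another motif. These are matches of letters alone.

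Paralogs of the members stayed minor. Atp2a2 made up 99.8% of the counts of the 3 SERCA genes in controls and 99.0% to 99.2% in knockouts, Ryr2 made up 99.9% of those of the 3 ryanodine receptors in controls and 98.6% to 99.2% in knockouts, and Slc8a1 at least 99.7% of those of the 3 exchangers in either group. Jph2 held 92.1% to 92.8% of the counts of the 4 junctophilins in controls and 89.1% to 91.0% in knockouts. Of 10 paralogs and other release channels, 7 were tested, of which 2 were higher and 3 lower (median -0.15, and 0.83 with library totals). That is 71.4% called, beside 50.0% of all features tested (26.1% higher and 23.9% lower). Ryr3, a receptor of low level in heart, rose from 1.17 ± 0.259 to 3.66 ± 0.489 CPM (log2 fold change 1.64, SE 0.19, adjusted p = 6.32e-06), and Atp2a3, the SERCA of blood and endothelial cells, from 5.44 ± 0.201 to 10.8 ± 0.890 CPM (0.99, SE 0.10, adjusted p = 1.56e-06). Itpr1, an inositol trisphosphate receptor, fell from 50.7 ± 3.87 to 27.6 ± 1.28 CPM on the TMM scale (-0.88, SE 0.07, adjusted p = 4.18e-07), but its value was 0.13 with library totals and -0.33, not passed, scaled to cardiomyocyte markers. The skeletal muscle pump Atp2a1 was lower by -0.81 (SE 0.29, adjusted p = 0.0319) with overlapping groups, a call that DESeq2 (adjusted p = 0.0912) and 5 of the 8 fits without 1 library did not make. Ryr1, the skeletal muscle receptor, held 0 to 7 counts and was not tested.

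Of 14 tested partners of the release unit and proteins of the SR lumen, 8 were higher and 3 lower on the TMM scale (median 0.42), and 14 and 0 with library totals. On the TMM scale that is 78.6% called, beside 50.0% of all features tested. The counts of this list, here and below, include Fkbp1b as a higher gene. It reached the minimum count for testing through the knockouts alone (2 to 5 counts in controls, 11 to 23 in knockouts), so its call is not read as a result. Calm2, which encodes calmodulin, a calcium sensor that binds the ryanodine receptor, rose from 24.1 ± 1.23 to 48.6 ± 6.0 CPM (log2 fold change 1.01, SE 0.09, adjusted p = 7.49e-07). Sri, the gene of sorcin, another calcium-binding partner of the receptor, rose from 12.5 ± 1.3 to 26.1 ± 3.07 CPM (1.06, SE 0.10, adjusted p = 1.21e-06). S100a1, whose product binds both receptor and pump, rose from 88.2 ± 2.08 to 149.9 ± 14.5 CPM (0.76, SE 0.08, adjusted p = 2.99e-06). Their groups did not overlap.

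Among 17 tested kinases, phosphatases and related regulators of calcium cycling, 5 were higher and 7 lower (median -0.05, and 0.95 with library totals). The share called was 70.6%, beside 50.0% of all features tested (26.1% higher and 23.9% lower). The falls included Camk2a, from 23.0 ± 0.979 to 5.69 ± 0.511 CPM (-2.02, SE 0.09, adjusted p = 5.39e-10), and Camk2b, from 6.78 ± 0.50 to 1.22 ± 0.105 CPM (-2.46, SE 0.13, adjusted p = 4.71e-09). Both encode isoforms of the calcium and calmodulin dependent kinase. Camk2d, the main isoform in heart, did not pass (-0.05). Prkar1a, a regulatory subunit of protein kinase A, rose from 132 ± 7.25 to 350.1 ± 55.8 CPM (1.41, SE 0.11, adjusted p = 1.46e-07). Prkar2a, another regulatory subunit, did not pass (0.08).

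Of 13 tested genes of calcium entry and extrusion across the cell membrane, 7 were lower and 1 higher on the TMM scale (median -0.61). With library totals 2 were lower and 5 higher (median 0.35). On the TMM scale 61.5% were called, beside 50.0% of all features tested. The list, named membrane channels below, also holds pumps, exchangers and the store sensor Stim1. Cacna2d1 and Cacnb2, accessory subunits of the L-type calcium channel, fell from 119 ± 4.59 to 55.2 ± 3.52 CPM (-1.11, SE 0.07, adjusted p = 2.81e-08) and from 57.9 ± 2.74 to 20.5 ± 7.35 CPM (-1.50, SE 0.17, adjusted p = 6.4e-06). Stim1, the sensor of store depletion, fell from 11 ± 0.364 to 6.99 ± 0.468 CPM on the TMM scale (-0.66, SE 0.09, adjusted p = 2.95e-05), but its value was 0.32 with library totals and -0.13 scaled to cardiomyocyte markers. With library totals Cacna2d1 did not pass either (-0.12). On the TMM scale Slc8a1 thus rose beside the channel subunits Cacna2d1 and Cacnb2, which fell.

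Of 12 genes for calcium transport into and out of mitochondria, 4 were higher and 1 lower (median 0.05), which is 41.7% called beside 50.0% of all features tested. With library totals 11 were higher and 0 lower (median 1.04), and scaled to cardiomyocyte markers 9 and 0. Those higher included Micu2, a gatekeeper of the uniporter, at 16.9 ± 1.82 and 35.2 ± 4.17 CPM (1.06, SE 0.10, adjusted p = 1.08e-06), and the outer membrane channels Vdac2, at 72.3 ± 2.75 and 135 ± 7.63 CPM (0.90, SE 0.07, adjusted p = 1.9e-07), and Vdac3, at 33.2 ± 0.739 and 52.1 ± 3.87 CPM (0.65, SE 0.07, adjusted p = 4.71e-06). Mcu, the uniporter itself, did not pass (-0.01). Nor did Vdac1 (-0.08), the outer membrane channel with the highest level of the Vdac genes (205 CPM in controls, 194 CPM in knockouts). Of 11 genes of calcineurin and NFAT, the phosphatase and the factor it activates, 3 were higher and 4 lower (median -0.15, and 0.84 with library totals). In this list 63.6% were called, beside 50.0% of all features tested (26.1% higher and 23.9% lower). The calcineurin regulators Rcan2 and Rcan1 rose from 214 ± 15.5 to 416 ± 53.8 CPM (0.96, SE 0.10, adjusted p = 2.4e-06) and from 48.7 ± 8.56 to 104 ± 21.3 CPM (1.09, SE 0.15, adjusted p = 4.12e-05). Nfatc2 fell from 8.59 ± 1.21 to 3.18 ± 1.09 CPM (-1.43, SE 0.20, adjusted p = 4.12e-05), and did not pass with library totals (-0.45).

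**Figure D4:**
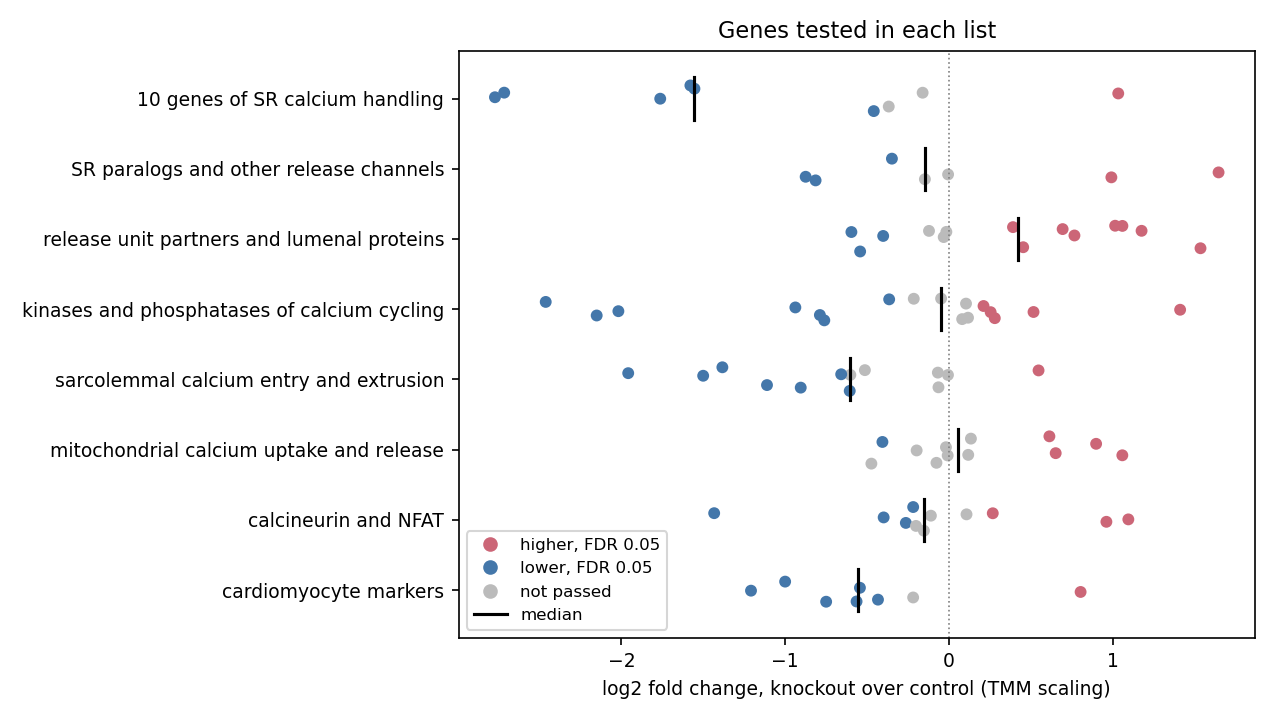
log2 fold change (knockout over control, TMM scale) of each tested gene in the 10 calcium handling genes, the 6 lists of related genes and the cardiomyocyte markers, red and blue where it passed as higher or lower, grey where it did not, with a black bar at the median. The calcium handling genes have their median at -1.55, the cardiomyocyte markers at -0.55 and the release unit partners at 0.42. The partners shown include Fkbp1b, which reached the minimum count for testing through the knockouts alone.

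In the authors' deposited table the same genes had log2 fold changes of -2.72 (Hrc), -2.61 (Casq1), -1.72 (Ryr2), -1.53 (Atp2a2), -1.47 (Pln), -0.44 (Jph2) and 1.04 (Slc8a1). The authors' deposited table gives adjusted p-values of 0.0783 for Casq2 and 0.213 for Trdn, and none for Sln.

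Overlapping genes limit some counts. On the opposite strand, exons of Gm43361 share 83 bases with Atp2a2, those of Cep85l 141 bases and those of Gm47644 1644 bases with Pln, those of Gm17224 156 bases with Casq1, and those of AC122399.1 and Gm11096 296 and 8 bases with Slc8a1. The sources used here do not say whether counting used strand, so reads of a gene and its antisense partner cannot be told apart. Gm43361 itself held 6459 counts over the 4 controls and 3698 over the 4 knockouts.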

How the data were processed

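Total RNA of crude heart mitochondria from 8 mice (4 control, 4 knockout) was made into TruSeq libraries and sequenced with paired ends on a MiSeq, per the labels' protocols. The authors deposited raw counts per gene (whole numbers), which were used here. The deposited normalized signal equals the raw count times a constant per library and was not used further. The authors' deposited table of mean signal, log2 fold changes, a test score and p-values was read for the members alone. The submitters' processing notes list DESeq2 1.14.1 in R 3.3.2, featureCounts, bedtools, SAMtools 1.3.1 and Bowtie2 with the mm10 build, and give them no role or order. Annotation and settings were not given in these sources.

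Counts were fitted over the whole table in R 4.3.3 with edgeR 4.0.16 (TMM factors, 0.689 to 0.733 in controls and 1.03 to 1.61 in knockouts; filterByExpr with a minimum count of 10; quasi-likelihood test on genotype), two-sided, with Benjamini-Hochberg adjustment over 17891 features. The biological coefficient of variation was 11.3%. A standard error is the absolute log2 fold change divided by √F. Ratios of 2 genes, with 0.5 added to each count, were compared by exact permutation and adjusted over 6 ratios. The 6 include Sln to Atp2a2, which is no measure of Sln, and the adjusted p of the other ratios depends on its inclusion. The script was tested on simulated counts that held no shift in the part of mtDNA between groups, so the test does not check the scaling of these libraries. Floors cover counting error only, since these reads carry no molecular identifiers. Pairs of libraries of a group differed by more than counting noise (2.42 to 125 times the chi-square expected from counting), and none was counted as a duplicate.

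The members and lists were chosen with earlier results of these data known. Named genes are the 10 members, up to 3 called genes with the smallest p from each list, Atp2a1, Ryr1 and Tefm. Mcu, Camk2d, Prkar2a and Vdac1 were added after their values were seen. All list genes matched by symbol except Strit1. Alternatives were DESeq2 1.42.0, RLE factors, library totals, nuclear genes alone, the replicate number as a block, no filter, each library left out and, added after the data were seen, scaling to 8 cardiomyocyte markers. Gene positions are those of GENCODE M21 (GRCm38), matched by gene identifier without its version. Promoter windows are RefSeq's (GRCm38.p6). Figures were drawn with matplotlib 3.10.9.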

Additional observations from a re-analysis of the deposited data

Results flagged for a closer look

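Of 30 groups of 4 libraries examined (each member's CPM and each ratio in each genotype), 6 had a library apart from the other 3 by Dixon's 95% criterion, which chance flags in about 1 of 20 groups. Knockout replicate 1 stood apart at 482 CPM for Ryr2 and at 702 CPM for Slc8a1, each above the other knockouts. Control replicate 3 stood apart at 5.75 CPM for Casq1 and at 0.0153 for the ratio of Casq1 to Casq2, each below the other controls. Knockout replicate 4 stood apart for Sln through a single count (0.0315 CPM; 2.56e-05 for the ratio of Sln to Atp2a2).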

How the results depend on the processing

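Hrc, Casq1, Ryr2, Pln, Atp2a2 and Slc8a1 kept their direction and passed under all 15 alternatives. Over all features, 4669 were higher and 4274 lower (52.2% of calls higher), against 14066 and 480 (96.7%) with library totals and 9030 and 979 (90.2%) scaled to cardiomyocyte markers, and 4307 to 4909 and 3818 to 4716 with 1 library left out. Of the members, 4 were higher and 5 lower with library totals, 2 and 5 scaled to cardiomyocyte markers, and 1 and 6 to 8 with 1 library left out (8 without knockout replicate 1). With library totals, counts higher and lower were 5 and 0 for paralogs, 14 and 0 for release unit partners, 11 and 3 for kinases, 5 and 2 for membrane channels, 11 and 0 for mitochondrial transport, and 10 and 0 for calcineurin. Scaled to cardiomyocyte markers, none of the paralogs or partners was lower, and the counts were 9 and 3 for kinases, 4 and 4 for membrane channels, 9 and 0 for mitochondrial transport, and 6 and 1 for calcineurin. The 1 lower gene of mitochondrial transport became 0 with DESeq2 and without a filter, and 2 with the replicate block; of calcineurin, 2 were lower without a filter. With library totals the log2 fold change turned for Casq2 (0.56), Trdn (0.81), Jph2 (0.52), Atp2a1 (0.15), Itpr1 (0.13) and Stim1 (0.32), and scaled to cardiomyocyte markers for Casq2 (0.11), Trdn (0.36) and Jph2 (0.065).

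With 1 library left out, counts higher and lower ranged from 2 to 3 and 2 to 3 for paralogs, 7 to 8 and 3 to 4 for partners, 4 to 5 and 7 to 8 for kinases, 1 and 7 to 8 for membrane channels, 4 and 0 to 1 for mitochondrial transport (0 without control replicate 2 or knockout replicate 3), and 3 and 3 to 5 for calcineurin. The log2 ratio differences ranged from -0.25 to 0.090 (without knockout replicate 2) for Pln to Atp2a2, 0.80 to 1.43 for Sln to Atp2a2, -0.31 to -0.15 for Ryr2 to Atp2a2, 2.53 to 2.63 for Slc8a1 to Atp2a2, -2.53 to -2.16 for Casq1 to Casq2, and 1.57 to 1.73 for Trdn to Ryr2. Replicate numbers did not pair the samples (correlation of same-numbered deviations -0.006 to 0.080). With the replicate number as a block, 4580 features were higher and 4253 lower, and the ratios of Slc8a1 (2.58), Casq1 (-2.33), Trdn (1.63) and Sln (1.23) did not pass, since 4 pairs allow no p below 0.125. The low depth of nuclear genes limits Sln and Ryr1.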

Other observations

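Beside the genes named by rule, a pair of list genes was picked after the values were seen. Adrb1, the beta-1 adrenergic receptor whose signal through protein kinase A relieves the phospholamban brake, went from 12 ± 1.80 to 2.73 ± 0.763 CPM (SD, n = 4 each; edgeR log2 fold change -2.15, SE 0.17, adjusted p = 1.81e-07) and was at -1.19 with library totals. Fkbp1b, whose protein binds and steadies the ryanodine receptor, held 2 to 5 counts in controls and 11 to 23 in knockouts. It reached the minimum count for testing through the knockouts alone, so these counts are given with no test. Bmp10, an atrial gene of the normal adult heart, held 0 counts in 3 controls and 1 in control replicate 4, against 297, 324, 71 and 129 counts in the knockouts, while the atrial light chain Myl7 stayed at 4 counts or fewer.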
